A study of Mus musculus with 8 samples.

Results

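The genes described here encode beta-catenin (Ctnnb1), the complex that destroys it (Apc, Axin1, Axin2, Gsk3b), the Wnt co-receptors (Lrp5, Lrp6) and the nuclear partners of beta-catenin (Tcf7l1, Tcf7l2, Bcl9). They were taken by gene name from lists of N4-acetylcytidine (ac4C) peaks in mouse mRNA. All 10 genes had at least 1 peak, together 131 of the 75481 peaks in the lists, and these peaks formed 65 of 39860 loci. A locus is a stretch in which peaks of the 4 lists overlap by at least 1 bp. ac4C is cytidine with an acetyl group, put on RNA by the enzyme NAT10, and acetylated RNA immunoprecipitation and sequencing (acRIP-seq) compares RNA pulled down by an ac4C antibody with its input. Dif-FGCs were differentiated germ cells at day 3, derived from FGSCs that by the study's methods were co-cultured with granulosa cells in serum with bFGF, retinoic acid and BMP4. FGSCs were the cultured female germline stem cells of mouse ovary from which they came, and no other genotype or treatment is given for either group. Each group had 2 IP libraries with 2 inputs, 8 libraries in all, and there is 1 peak list per IP library, called Dif-FGC 1, Dif-FGC 2, FGSC 1 and FGSC 2. Nothing in the labels says that replicates were separate cultures, and whether granulosa cells were removed before RNA extraction is not given in the sources used here.

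In canonical Wnt signaling the scaffolds Axin and APC hold beta-catenin where the kinases CK1 and GSK3-beta phosphorylate it, and the marked protein is ubiquitinated and degraded. When a Wnt ligand joins a Frizzled receptor to LRP5 or LRP6, Axin is drawn to the membrane, beta-catenin accumulates, and in the nucleus it binds TCF proteins and recruits BCL9. In the fetal ovary this pathway is known to act downstream of Rspo1 and Wnt4.

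The lists held 22480 peaks for Dif-FGC 1, 13920 for Dif-FGC 2, 22791 for FGSC 1 and 16290 for FGSC 2. The tables give peaks without reads, so depth is unknown and the lack of a peak does not show the lack of ac4C. More acetylation, more transcript and more cells that express it cannot be told apart in these bulk samples. The fold of a peak is the authors' ratio of IP over input. Because each list was called separately, a fold is read here through its percentile. This is the percent of peaks in the same list with a lower fold, with tied peaks placed at the middle of their shared ranks. The germ cell markers Ddx4 and Dazl had no peak in any list, while Etv5, Zbtb16 and Kit had peaks in all 4. The germ cell list held 12 genes, and 8 had a peak. Itga6 was held by both Dif-FGC libraries alone, and Ifitm3 and Thy1 by both FGSC libraries alone. These were 1 and 2 of the 8, beside 1.62% and 5.25% of all genes so held. Itga6 ranked low, with folds of 3.24 in Dif-FGC 1 and 3.56 in Dif-FGC 2. Thy1 had percentiles of 13.2 in FGSC 1 and 53.9 in FGSC 2, and Ifitm3 had 90.0 and 72.5. Pou5f1 and Dppa3 had no peak, and Prdm1 and Gfra1 had one in a single library each. Of 11 granulosa cell markers 7 had a peak in at least 1 list, and Foxl2, Amh, Fshr and Cyp19a1 had none. Of 6 meiosis markers 1 had a peak, and of 7 oocyte markers 2 had one. Stra8 and Sycp3, the meiotic markers by which the study follows differentiation, had none. Positions are in the mm10 build.

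The set carried peaks in both states, and no gene of it was held by 1 state alone. A peak was present in all 4 libraries for 7 of the 10 genes, against 43.5% of the 11417 genes with any peak. The other 3 genes were Apc, which lacked a peak in Dif-FGC 2, Axin2, which lacked one in Dif-FGC 2 and FGSC 2, and Tcf7l2, which lacked one in Dif-FGC 2 and FGSC 1. A gene was counted for one state when both of its libraries held a peak and the other state's libraries held none. By this rule 0 of the 10 genes were in Dif-FGCs only (1.62% of all genes) and 0 in FGSCs only (5.25% of all genes). With 10 genes, counts of 0 are near these shares. In total the set had 42 and 27 peaks in Dif-FGC 1 and Dif-FGC 2, and 36 and 26 peaks in FGSC 1 and FGSC 2. In each state the longer list held more. With each list shortened to its 13920 strongest peaks they were 27 and 27 in Dif-FGCs, and 24 and 22 in FGSCs.

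**Figure D1:**
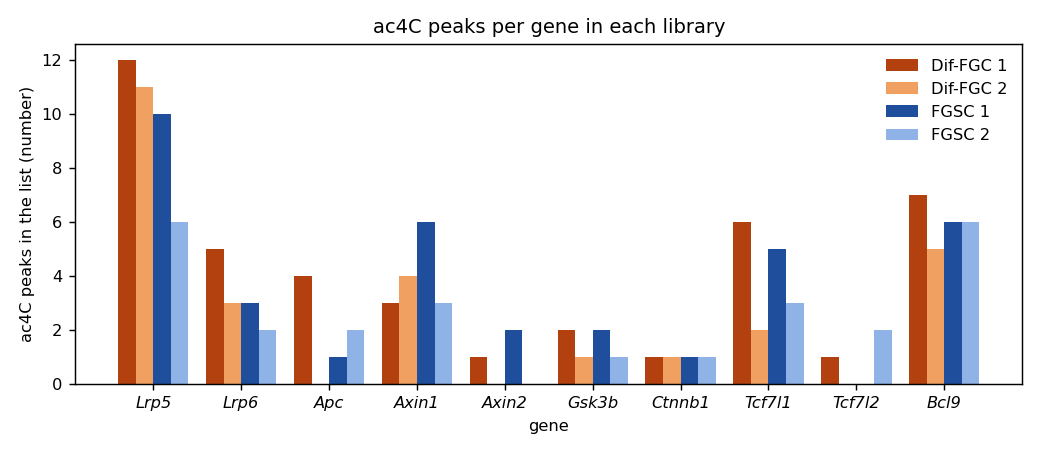
Number of ac4C peaks per gene (vertical axis) in each of the 4 libraries, with genes ordered by role and 1 bar per library. Lrp5 had the most peaks in Dif-FGC 1 (12), Dif-FGC 2 (11) and FGSC 1 (10), and Ctnnb1 had 1 in each library.

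At the level of loci the states differed most in the co-receptors. Of the 65 loci, 6 (9.23%) were held by both Dif-FGC libraries and neither FGSC library, against 3.65% of all loci, and 2 (3.08%) were held by both FGSC libraries and neither Dif-FGC library, against 3.61% of all loci. All 6 Dif-FGC-only loci lay in Lrp5 and Lrp6, whose 28 loci thus had a share of 21.4%. Without Lrp5 the share over the set was 2 of 45 loci (4.44%), near that of all loci. A further 11 loci (16.9%) were held by all 4 libraries, against 15.5% of all loci, and 29 (44.6%) were held by a single library, against 54.7%. The remaining 17 were held by 2 or 3 libraries in a way that does not follow the groups.

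Lrp5, a co-receptor that carries the Wnt signal across the membrane, had more peaks than any other gene of the set in each library but FGSC 2, where Bcl9 had as many. It had 12 and 11 peaks in Dif-FGC 1 and Dif-FGC 2, against 10 and 6 peaks in FGSC 1 and FGSC 2. Both Dif-FGC libraries thus lay above both FGSC libraries, which held for 1 of the 10 genes here and for 4.94% of all genes. The opposite order held for 0 of the 10 and for 9.24% of all genes. The mean was 11.5 ± 0.707 in Dif-FGCs and 8 ± 2.83 in FGSCs (SD, n = 2 each, exact two-sided permutation p = 0.33, the smallest that 2 against 2 libraries can give). With equal list lengths Lrp5 had 10 and 11 peaks in Dif-FGCs, against 4 and 6 in FGSCs. The difference of 3.5 peaks between the means was 1.5 without FGSC 2. Bcl9 had fewer peaks but more bases under them, 3690 and 2830 bp in Dif-FGCs, and 3749 and 1012 bp in FGSCs, against 1677 and 2760 bp, and 1172 and 694 bp for Lrp5 in the same libraries. Within each list 99.0% and 99.1% of genes in Dif-FGCs, and 98.2% and 96.2% in FGSCs, had fewer peaks than Lrp5.

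Of the 20 Lrp5 loci, 4 were held by Dif-FGCs only and 1 by FGSCs only. The locus at chr19:3628273-3628444 had identical limits in both Dif-FGC libraries, with a fold of 15.2 in Dif-FGC 1 and 12.3 in Dif-FGC 2 (percentiles 77.5 and 69.1). The neighbouring locus at chr19:3630074-3630470, also with identical limits, had folds of 16.3 and 10.9 (percentiles 79.2 and 64.6). Both therefore ranked in the upper part of each Dif-FGC list, while the FGSC lists had no peak there. At chr19:3622354-3622726 the Dif-FGC folds were 19.9 and 9.61 (percentiles 83.6 and 59.2), where the Dif-FGC 1 peak covered the last 25 bp and the Dif-FGC 2 peak 373 bp. The fourth locus, chr19:3590974-3591113, was weaker in Dif-FGC 2, with folds of 11.9 and 5.23 (percentiles 70.2 and 26.2).

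The first 3 of these loci started 37.5 to 45.2 kb above the lower-coordinate limit of the gene. No FGSC peak started between 30.9 kb and 62.7 kb, whereas each Dif-FGC list had 3 peaks there, a stretch singled out after the values were seen. The FGSC-only locus lay near the lower limit at chr19:3586383-3586480, with a fold of 7.74 in FGSC 1 and 11.0 in FGSC 2 (percentiles 36.3 and 67.2). The FGSC 1 peak had the same fold and score as another Lrp5 peak of that list, and whether these are separate measurements was not tested. At least 4 Dif-FGC-only loci were found in 14 of 11417 genes (0.123%). Genes with many loci reach this more easily, and among the 57 genes with 20 or more loci 6 had at least 4 (10.5%). The median over these 57 genes was 1.

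Lrp5 also had 3 loci that every library held. At chr19:3584935-3585291, beside the lower limit of the gene, folds were 20.3 and 13.0 in Dif-FGCs (percentiles 84.0 and 71.0), and 38.1 and 5.35 in FGSCs (percentiles 89.6 and 37.7). The FGSC libraries thus lay on both sides of the Dif-FGC libraries. At chr19:3591616-3591852 folds were 12.5 and 9.33 in Dif-FGCs (percentiles 71.8 and 57.9), and 7.74 and 8.50 in FGSCs (percentiles 36.3 and 58.2). The FGSC 1 peak there was 17 bp long, and the groups overlapped. The third is described with the shared loci, and 8 of the 20 Lrp5 loci were held by a single library.

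**Figure D2:**
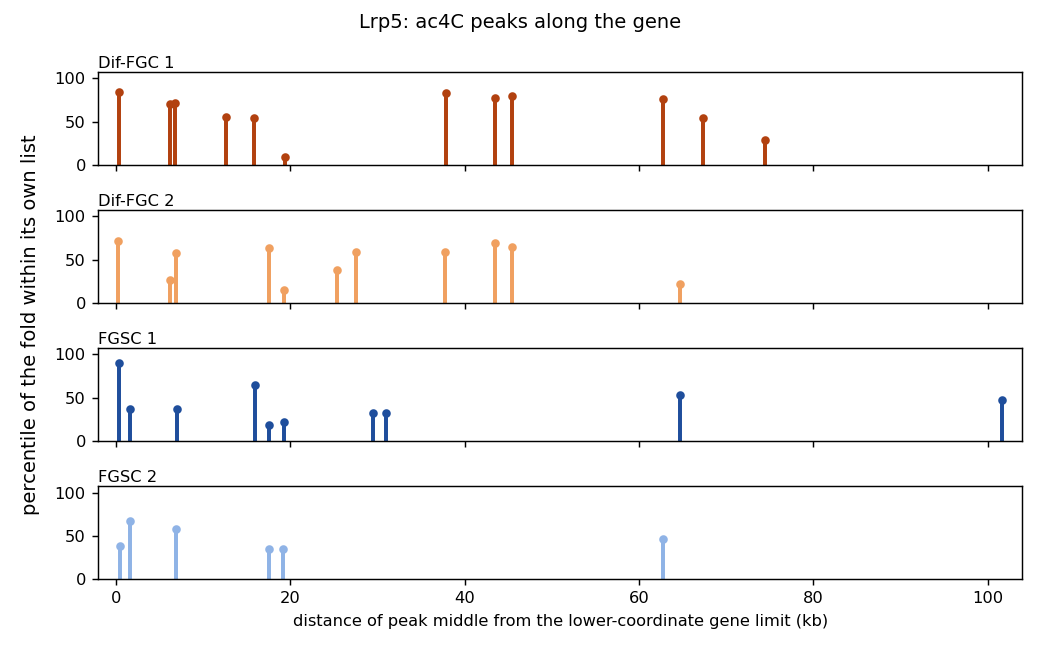
Position of each Lrp5 peak (horizontal axis, kb from the lower-coordinate limit of the gene in RefSeq) and the percentile of its fold within its own list (vertical axis), with 1 panel per library. Both Dif-FGC libraries have 3 peaks that start between 37.5 and 45.2 kb, where the FGSC libraries have none.

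The number of Lrp5 loci in Dif-FGCs only was 6 without Dif-FGC 1, 8 without Dif-FGC 2, 4 without FGSC 1 and 4 without FGSC 2. The share of all loci so called was 9.64%, 23.4%, 10.7% and 6.78% in the same settings, so it moved as well. With equal list lengths the number was 4, and the share of all loci was 5%. The number in FGSCs only was 4 without FGSC 2 (27.6% of all loci), 3 without Dif-FGC 2 (5.08%) and 0 with equal list lengths (3.64%). Some granulosa cell markers were also held by Dif-FGCs alone, while Inhba and Fst ran the other way. Nr5a1 had 4 and 1 peaks and Nr5a2 had 2 and 1 peaks in Dif-FGCs, and both had 0 in either FGSC library. These were 2 of the 7 granulosa cell markers with a peak, beside 1.62% of all genes so held. Their strongest peaks in Dif-FGC 1 and Dif-FGC 2 had percentiles of 77.8 and 35.2 for Nr5a1, and 79.3 and 19.5 for Nr5a2. Inha had 0 and 2 peaks in Dif-FGCs, and Inhbb and Hsd17b1 each had 1 and 0, with 0 in either FGSC library. Inhba had 2 and 0 peaks in Dif-FGCs, against 3 and 3 in FGSCs, and Fst had 0 and 0, against 3 and 0. Of the 11 genes on that list, 5 and 3 had a peak in Dif-FGC 1 and Dif-FGC 2, against 2 and 1 in FGSC 1 and FGSC 2. Their peaks summed to 10 and 4 in Dif-FGCs, against 6 and 3 in FGSCs, so the sums overlapped, and their part in the Lrp5 result was not tested.

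Lrp6, the close relative of Lrp5 and a co-receptor for the same ligands, had 5 and 3 peaks in Dif-FGC 1 and Dif-FGC 2, against 3 and 2 peaks in FGSC 1 and FGSC 2. The mean was 4 ± 1.41 in Dif-FGCs and 2.5 ± 0.707 in FGSCs (SD, n = 2 each), and the groups met at 3 peaks. The exact two-sided permutation test gave p = 0.67, and with 2 against 2 libraries it cannot give less than 0.33. Its strongest peak in every library lay at chr6:134541652-134542045 with identical limits. The folds were 15.8 and 6.74 in Dif-FGCs (percentiles 78.5 and 40.8), and 24.5 and 12.9 in FGSCs (percentiles 81.4 and 72.1). Both Dif-FGC-only loci of Lrp6 ranked low. The one at chr6:134453550-134453647 had folds of 4.51 and 3.51 (percentiles 27.4 and 6.94), and the one at chr6:134454697-134454833 had folds of 2.06 and 3.60 (percentiles 0.391 and 7.94), close to the lowest fold of 2 in these lists. With equal list lengths Lrp6 had 1 and 3 peaks in Dif-FGCs, against 1 and 2 in FGSCs.

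The 4 genes of the destruction complex had 18 loci. None was held by both libraries of one state alone, where the shares of all loci were 3.65% for Dif-FGCs and 3.61% for FGSCs, so a count of 0 in 18 is near the background. All 4 libraries held 2 of the 18 (11.1%, against 15.5% of all loci), and a single library held 10 (55.6%, against 54.7%). Peaks summed to 10 and 5 in Dif-FGC 1 and Dif-FGC 2, against 11 and 6 in FGSC 1 and FGSC 2. In each group the longer list had the larger sum.

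Axin1, the scaffold that assembles the complex, carried one of the strongest peaks of the set. At chr17:26138686-26139041 all 4 libraries held a peak with identical limits, with folds of 49.6 and 21.4 in Dif-FGCs (percentiles 94.8 and 84.2), and 36.0 and 48.1 in FGSCs (percentiles 88.8 and 93.0). The groups overlapped. Other Axin1 loci were shared across states, such as chr17:26189986-26190231, with a fold of 4.43 in Dif-FGC 2, and 11.3 and 5.12 in FGSC 1 and FGSC 2. At chr17:26182490-26182586 Dif-FGC 1 and FGSC 1 held a peak with identical limits, with a fold of 7.04 in Dif-FGC 1 and 11.7 in FGSC 1 (percentiles 49.6 and 56.9). Dif-FGC 2 and FGSC 1 shared 2 more, at chr17:26184177-26184314 and chr17:26187704-26188221. In total Axin1 had 3 and 4 peaks in Dif-FGCs, against 6 and 3 in FGSCs.

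Axin2, a second scaffold that is itself a transcriptional target of beta-catenin, had few peaks and none that recurred. Dif-FGC 1 had 1 peak of 30 bp, Dif-FGC 2 had 0, FGSC 1 had 2 and FGSC 2 had 0. The 2 peaks of FGSC 1, at chr11:108943800-108943886 and chr11:108945880-108946039, had the same fold of 11.3 and the same score.

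Apc, the other large scaffold, had 4 and 0 peaks in Dif-FGC 1 and Dif-FGC 2, against 1 and 2 peaks in FGSC 1 and FGSC 2. A single locus recurred, at chr18:34268298-34268354, with a fold of 9.66 in Dif-FGC 1, and 4.55 and 6.08 in FGSC 1 and FGSC 2 (percentiles 63.2, 9.48 and 44.5). The remaining 4 loci were each found in 1 library. They included a peak of 1103 bp in Dif-FGC 1 at chr18:34317393-34318495, with a fold of 4.74. Without Dif-FGC 1, Apc would be called in FGSCs only.

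Gsk3b, the kinase that phosphorylates beta-catenin, was marked in every library by 1 long peak close to its RefSeq start site. The peak lengths were 1463 and 1527 bp in Dif-FGCs, and 1359 and 1275 bp in FGSCs, within chr16:38089026-38090613. Folds were 13.6 and 5.07 in Dif-FGCs (percentiles 74.6 and 24.3), and 17.1 and 8.55 in FGSCs (percentiles 71.3 and 58.6). By percentile Dif-FGC 1 lay highest and Dif-FGC 2 lowest, and the groups overlapped. Each of the other 2 loci was held by 1 library, in Dif-FGC 1 and in FGSC 1.

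Ctnnb1, the effector of the pathway, had exactly 1 peak in each library and it was the same peak. It lay at chr9:120933400-120933638, 239 bp long with identical limits in all 4 lists, and its first base was the first base of the gene in RefSeq. The folds were 23.2 in Dif-FGC 1 and 12.4 in Dif-FGC 2 (percentiles 86.3 and 69.3), and 16.1 in FGSC 1 and 22.6 in FGSC 2 (percentiles 69.4 and 84.2). Dif-FGC 2 and FGSC 1 were nearly equal, as were Dif-FGC 1 and FGSC 2. The mean percentile was 77.8 in Dif-FGCs and 76.8 in FGSCs. The difference of 1.02 points was smaller than the distance between replicates, 69.3 to 86.3 in Dif-FGCs and 69.4 to 84.2 in FGSCs. The exact two-sided permutation test gave p = 1 (n = 2 each). Among the 4960 other genes that every library held, those whose strongest peak followed the Ctnnb1 percentiles most closely included Pkn2 and Vopp1. The largest difference over the 4 libraries was 3.21 points for Pkn2 and 3.70 points for Vopp1.

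Because peaks of all 4 libraries covered the transcript just behind RefSeq start sites of Ctnnb1, Bcl9 and Tcf7l1, these bases are shown, from 21 to 50 counted from the start site. The lines give the RNA strand as DNA letters of RefSeq GRCm38.p6, and capitals mark CNNCNNCNN, which is 1 base longer than the CNNCNNCN form that the study names for ac4C, with any overlapping match left in lower case.
Ctnnb1, start site at 120933400: cggagCGGCAGCGGcaggatacacggtgcc
Ctnnb1, start site at 120933578: gccgagcgggCGGCCGCGAgtgagcagcgc
Bcl9, start site at 97227364: CTGCCGCCGccggggggagacgctgcgctg
Tcf7l1, start site at 72789045: agggaggggcgccgggccgggccaggcagg
Both Ctnnb1 windows and the Bcl9 window held the motif on this strand, with 2, 1 and 3 matches counting overlaps, and they held 3, 2 and 6 on the other strand. The Tcf7l1 window held 0 on this strand and 2 on the other. Among 32851 windows of 30 bases at the same place behind RefSeq start sites, 32.9% held a match on the same strand, 41.2% on the other and 60.5% on either. The windows are at chr9:120933420-120933449, chr9:120933598-120933627, chr3:97227315-97227344 and chr6:72788996-72789025. The start site table held 6 of the 10 genes. In Axin2 the nearest peak lay 987 bp from the start site, and in Tcf7l2 607 bp from the nearer one.

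Among the nuclear partners, Bcl9 was the gene with most peaks. BCL9 binds beta-catenin and links it to Pygo proteins. It had 7 and 5 peaks in Dif-FGC 1 and Dif-FGC 2, against 6 and 6 in FGSC 1 and FGSC 2. A locus at chr3:97227218-97227364 began, in the direction of transcription, exactly at a RefSeq start site inside the gene limits, and it had identical limits in all libraries. Folds there were 43.1 and 9.19 in Dif-FGCs (percentiles 93.8 and 57.3), and 15.5 and 95.0 in FGSCs (percentiles 67.8 and 97.0). The replicates of each group lay far apart, and the groups overlapped.

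Further into Bcl9, 2 neighbouring shared loci had both Dif-FGC percentiles above both FGSC percentiles, in lists of full length. At chr3:97207147-97207407 folds were 14.9 and 10.9 in Dif-FGCs (percentiles 76.9 and 64.6), and 12.4 and 2.49 in FGSCs (percentiles 59.2 and 2.68). At chr3:97208478-97210716 they were 14.3 and 9.73 in Dif-FGCs (percentiles 75.9 and 59.7), and 5.19 and 7.38 in FGSCs (percentiles 14.6 and 53.0). With equal list lengths neither was held by all 4 libraries, since the first lost its FGSC 2 peak and the second its FGSC 1 peak, so this order rests on peaks low in the FGSC lists. The extent of the second locus varied. Dif-FGC 1 had peaks of 1656 and 320 bp, Dif-FGC 2 a single one of 2239 bp, FGSC 1 one of 2200 bp and FGSC 2 one of 342 bp. Of the Dif-FGC 1 peaks, the FGSC 2 peak overlapped only the shorter (fold 6.06, percentile 42.2), which lay below the 53.0 of FGSC 2. The order at the second locus thus holds for the strongest peak of each library and not for overlapping peaks. Of the loci held by 3 libraries, chr3:97212872-97212971 had folds of 6.87 and 10.3 in Dif-FGCs and 2.83 in FGSC 2, and chr3:97221779-97221861 had folds of 4.27 and 6.50 in Dif-FGCs and 14.9 in FGSC 1. Their order thus differed between loci of one gene. Bcl9 also had the other FGSC-only locus of the set, chr3:97216313-97216625, with folds of 18.3 and 5.51 in FGSC 1 and FGSC 2 (percentiles 73.5 and 39.2).

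**Figure D3:**
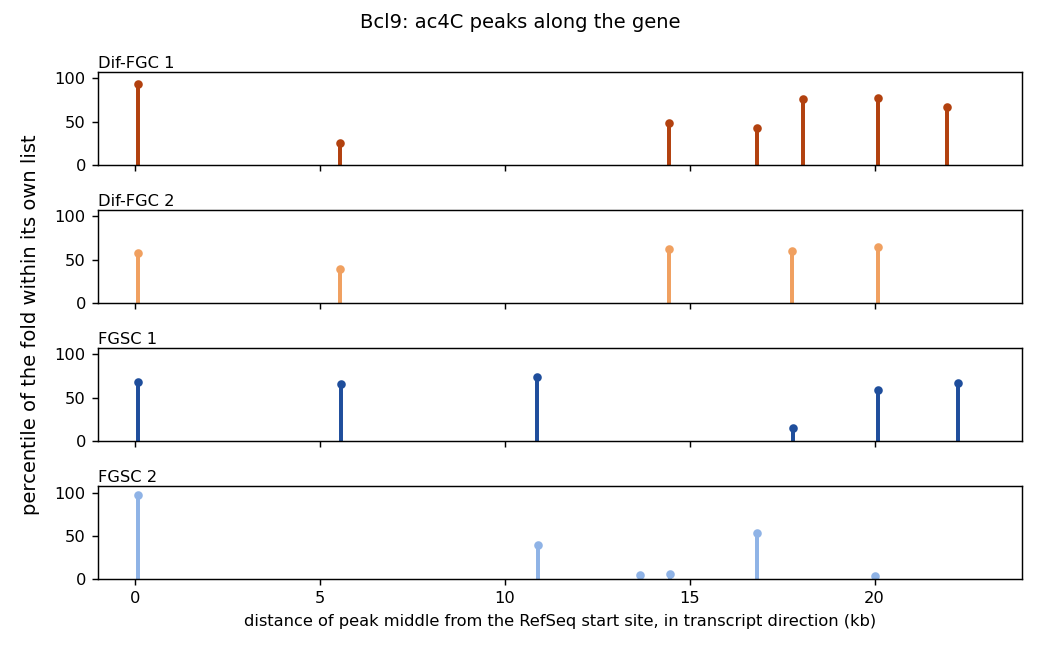
Position of each Bcl9 peak (horizontal axis, kb from the RefSeq start site in the direction of transcription) and the percentile of its fold within its own list (vertical axis), with 1 panel per library. A peak at the start site is present in all 4 libraries, with percentiles of 93.8 and 57.3 in Dif-FGCs, and 67.8 and 97.0 in FGSCs.

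Tcf7l1 and Tcf7l2 encode DNA-binding partners of beta-catenin, and Tcf7l1 is known mainly as a repressor. Tcf7l1 had 6 and 2 peaks in Dif-FGC 1 and Dif-FGC 2, against 5 and 3 in FGSC 1 and FGSC 2. Its 1 locus held by all libraries, chr6:72788710-72789254, spanned the start site, though the peaks of Dif-FGC 2 and FGSC 2 began 15 and 14 bp inside it. Folds there were 16.2 and 4.38 in Dif-FGCs (percentiles 79.0 and 16.0), and 18.5 and 12.9 in FGSCs (percentiles 73.7 and 72.1). In Dif-FGC 1 and FGSC 1 this peak reached beyond the RefSeq limit of the gene. At 2 loci that these libraries shared with identical limits, chr6:72631215-72631374 and chr6:72631956-72632096, the percentiles were 58.4 and 37.9 in Dif-FGC 1, and 85.5 and 83.3 in FGSC 1. Dif-FGC 2 and FGSC 2 had no peak at either.

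Tcf7l2 was sparsely marked, with 1 and 0 peaks in Dif-FGC 1 and Dif-FGC 2, against 0 and 2 in FGSC 1 and FGSC 2. None of its 3 loci recurred. The strongest, chr19:55931434-55931703 in FGSC 2, had a fold of 25.8 (percentile 86.2), and the Dif-FGC 1 peak at chr19:55742417-55742530 had a fold of 2.97 (percentile 8.73).

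At the 11 loci held by all 4 libraries, ranks did not separate the states in a common direction. Both Dif-FGC percentiles lay above both FGSC percentiles at 2 loci, the pair in Bcl9, against 22.6% of the 6160 loci shared by all libraries. Both lay below at 1 locus, chr19:3604002-3604192 in Lrp5, against 16.3% of shared loci. With equal list lengths neither the pair nor this locus was held by all 4 libraries, and the counts were 0 higher and 1 lower. At the Lrp5 locus the percentiles were 8.73 and 14.2 in Dif-FGCs, and 21.9 and 34.7 in FGSCs, although the Dif-FGC 1 peak met the FGSC peaks only through the longer Dif-FGC 2 peak. In the Bcl9 pair, the strongest Dif-FGC 1 peak at chr3:97208478-97210716 did not overlap the FGSC 2 peak. The groups overlapped at the other 8. The median difference of Dif-FGCs minus FGSCs was -1.37 points over the 11 loci and 1.45 points over all shared loci. Dif-FGC 2 had the lowest percentile at 6 of the 11, among them Gsk3b and Tcf7l1. Limits were identical in all 4 lists at 4 of the 11 loci, in Ctnnb1, Axin1, Lrp6 and Bcl9, against 43.9% of shared loci.

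**Figure D4:**
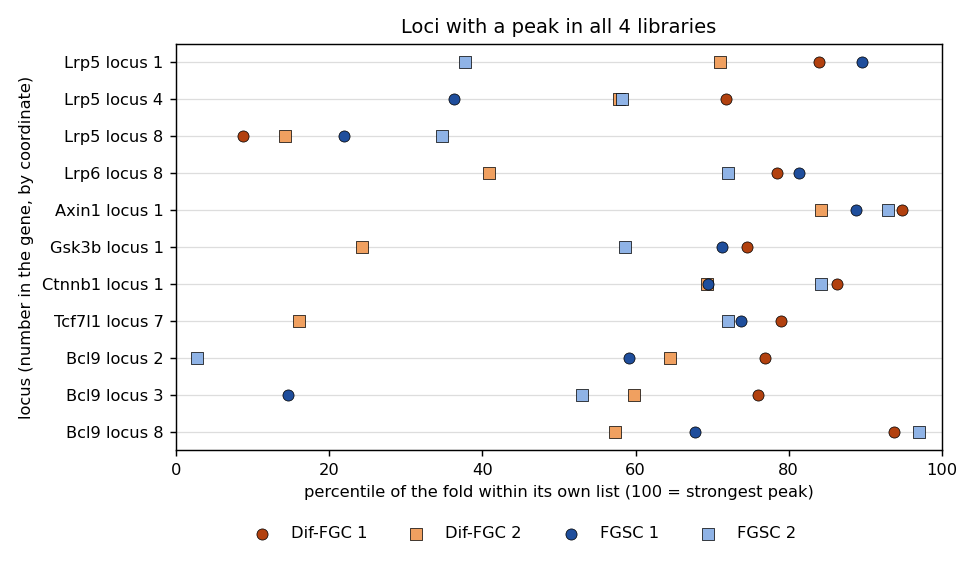
Percentile of the fold within its own list (horizontal axis) at the 11 loci with a peak in all 4 libraries (vertical axis, numbered by coordinate in each gene). Each library has 1 point per locus, its strongest peak there, and at Bcl9 locus 3 and Lrp5 locus 8 these peaks do not all overlap. Both Dif-FGC points are higher than both FGSC points at Bcl9 loci 2 and 3 and lower at Lrp5 locus 8, and the groups overlap elsewhere.

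Loci that more libraries held tended to have stronger peaks. In Dif-FGC 1 the median percentile was 28.2 for the 12 peaks at loci of that library alone, 56.5 for the 18 at loci of 2 or 3 libraries and 77.7 for the 12 at loci of all 4. In FGSC 1 it was 34.5 for 9 peaks, 56.2 for 16 and 69.4 for 11. Over all peaks of these lists the medians for loci of all 4 libraries were 80.4 and 77.4. In the shorter lists the order was less clear, with 48.2 for 2 peaks, 32.5 for 14 and 57.9 for 11 in Dif-FGC 2, and 39.1, 39.2 and 58.6 for 6, 9 and 11 peaks in FGSC 2. A strong exception was the Tcf7l2 peak of FGSC 2 described above, which no other library held. Peaks of one gene that had both fold and score in common within a list made up 8 of the 131 peaks, 6 in Lrp5 and 2 in Axin2, against 1.19% of all peaks. The authors' FDR of these 131 peaks was 56.0% to 66.0% in Dif-FGC 1, 100% throughout Dif-FGC 2, 66.4% to 77.6% in FGSC 1 and 51.0% to 82.9% in FGSC 2. None of the 131 peaks thus had an FDR under 51.0%.

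Of 91 further genes of the pathway listed by role, 67 had a peak. All 4 libraries held 34 of the 67 (50.7%, against 43.5% of all genes with a peak), Dif-FGCs alone held 1 (1.49%, against 1.62%) and FGSCs alone held 1 (1.49%, against 5.25%). The shares in all 4 libraries and in Dif-FGCs alone were thus near those of all genes. The Dif-FGC-only gene was Sfrp2, a secreted Wnt modulator, with 2 and 3 peaks in Dif-FGCs and 0 in both FGSC libraries. Its locus at chr3:83766321-83767043 had folds of 21.1 and 16.0, and a second Dif-FGC-only locus lay at chr3:83773118-83773704. The FGSC-only gene was Jup, which encodes plakoglobin, a close relative of beta-catenin in cell junctions. It had 2 peaks in each FGSC library and 0 in both Dif-FGC libraries, but its 4 peaks lay at 4 loci, so none recurred.

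By role, and among genes with a peak, all 4 libraries held 11 of 14 nuclear partner genes, 12 of 20 genes of the cytoplasmic relay and kinases, and 4 of 5 target genes, beside the 43.5% of all genes. They held 4 of 13 genes of ligand secretion and receptors, 2 of 6 genes of the ubiquitin ligase of beta-catenin, 1 of 5 adhesion genes and 0 of 4 secreted and membrane inhibitors and agonists. In the last role another 10 genes had no peak in any list. The kinase gene Csnk1g2, a member of the CK1 family that acts on LRP6, had the highest mean percentile of its role (98.4), although Gsk3a, named after its values were seen, ranked above it in Dif-FGC 1, Dif-FGC 2 and FGSC 2. Csnk1g2 had percentiles of 99.0 and 98.5 in Dif-FGCs, and 99.2 and 97.1 in FGSCs. Among nuclear partners the highest mean was that of Cdc73, a subunit of the PAF1 complex, with 96.1 and 93.5 in Dif-FGCs, and 98.0 and 98.6 in FGSCs. In the ubiquitin ligase it was that of Btrc, whose protein recognises phosphorylated beta-catenin. Fbxw11, also named after its values were seen, ranked above Btrc in each library but FGSC 2. Btrc had percentiles of 81.4 and 72.9 in Dif-FGCs, and 93.2 and 97.4 in FGSCs. Its peaks numbered 1 and 2 in Dif-FGCs, against 5 and 3 in FGSCs, an order that 9.24% of all genes had. The others chosen by mean percentile were the receptor gene Fzd2, the catenin gene Ctnnd1 and the target gene Fosl1. For Fosl1 the percentiles were 94.6 and 87.1 in Dif-FGCs, and 83.0 and 79.0 in FGSCs. Fzd2 ran the other way, with 86.3 and 54.2 in Dif-FGCs, and 94.6 and 91.7 in FGSCs. Ctnnd1 had 80.9 and 9.46 in Dif-FGCs, and 51.0 and 97.5 in FGSCs, so its groups overlapped. The share of all genes whose strongest peaks separate the groups was not computed. The orders of Cdc73, Btrc, Fosl1 and Fzd2 are therefore not read as differences between the states. At all shared loci, the share so separated was 22.6% with Dif-FGCs higher and 16.3% with Dif-FGCs lower.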

How the data were processed

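acRIP-seq peaks of 2 Dif-FGC and 2 FGSC IP libraries were used. Per the labels, the authors trimmed, aligned and called peaks with tools that their notes list as MACS2, HISAT2 and cutadapt, on mm10, with no versions. The deposited tables hold 1 list of mRNA peaks per IP library, with a fold (ratio of IP over input), a score made from the negative log10 of the p-value, an FDR in percent and a peak length in bp. The deposited score and peak names resemble MACS releases before MACS2, so the exact definition of these values is not settled. Sheets were assigned to libraries by the replicate code in their names. The lists carry no counts and no strand, so depth per sample is unknown and no count model was fitted. Peak numbers and percentiles were compared between libraries by exact permutation tests.

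Peaks were read as counted from 0 and printed counted from 1. Overlapping peaks were merged and ranked over the whole lists (Python 3.11.15, pandas 2.3.3), after the merging and calls were tested on simulated data. Gene limits and start sites were those of RefSeq GRCm38.p6, which held all 10 genes and start sites for 6, and exons were not annotated. Strand is given only where the start site table has it. Named genes were the 10 members, pathway genes called in 1 group, the gene of each role with the highest mean percentile and the 3 genes nearest to Ctnnb1, of which 1 is not reported here. The members and lists were chosen with earlier results of these data known. Alternatives changed the list length, the presence rule, the fold threshold, the overlap, the ranking value and the libraries used.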

Additional observations from a re-analysis of the deposited data

How the results depend on the processing

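The lists hold no depth, and each group had 2 libraries, so single libraries decided several counts. Counts of presence carry no replicate block. With the replicate number as a block, Dif-FGCs exceeded FGSCs by 3.5 peaks for Lrp5 (exact sign-flip p = 0.5, the smallest that 2 pairs can give), 1.5 peaks for Lrp6 (exact p = 0.5) and 1.02 points for the Ctnnb1 percentile (exact p = 1). With so few libraries neither this test nor the unpaired one can give a small p, so neither can decide on these differences. Percentiles of libraries with the same number did not deviate together over the 6160 shared loci (r = -0.048, a description). That value does not cover list length, which followed the number in both groups. Number 1 had 22480 and 22791 peaks, against 13920 and 16290 for number 2. Whether libraries with the same number were processed together was not tested. The Ctnnb1 difference ran from -7.50 to 9.54 points without single libraries, and was below 0 without Dif-FGC 1 and without FGSC 1. The count of loci in Dif-FGCs only (6) was 20 when 1 library sufficed for a state (30.8% of the loci of the set, against 26.5% of all loci), 3 among the stronger 50% of each list (7.69%, against 3.88%), and 7 to 19 without single libraries, with 19 without Dif-FGC 2 (29.7%, against 23.4%). That in FGSCs only (2) was 17 (26.2%, against 35.4%) and 0 (against 4.11%) under these rules, 1 with equal list lengths (2%, against 3.64%) and 4 to 11 without single libraries, with 11 without FGSC 2 (18.6%, against 27.6%). Loci in all 4 libraries (11) numbered 7 with equal list lengths, 3 in the stronger 50% and 12 to 13 without single libraries. Genes of the set in FGSCs only numbered 0 to 1 without single libraries, the 1 being Apc without Dif-FGC 1. Genes with a peak in all libraries (7) numbered 4 in the stronger 50%. Shared loci that ranked higher in Dif-FGCs (2) numbered 0 with equal list lengths and in the stronger 50%, and 3 to 9 without single libraries, with 9 without Dif-FGC 2. Those that ranked lower (1) numbered 0 in the stronger 50%, 0 with ranks by score and 0 to 8 without single libraries, with 8 without Dif-FGC 1. Pathway genes in Dif-FGCs only (1) numbered 4 when 1 library sufficed and 1 to 5 without single libraries. Those in FGSCs only (1) numbered 8 under that rule, 2 with equal list lengths, 2 in the stronger 50% and 1 to 12 without single libraries. Overlap of at least 50% of the shorter peak in place of 1 bp left each of these counts of loci as it was. For loci in all 4 libraries, ranked shared loci, genes of the set and pathway genes, the matching shares of all loci or genes were not computed under these settings. Their counts are therefore not read as results about the set. Among all loci, calls in 1 state also became more frequent without a library, as the shares above show.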
